A study of Mus musculus with 5 samples.

Results

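The genes described are 10 of the 22609 in the deposited table. They are the forkhead transcription factor gene Foxi1, the receptor tyrosine kinase gene Kit, and 8 subunit genes of the vacuolar proton pump (V-ATPase), of which 5 are tissue-restricted forms (Atp6v1b1, Atp6v1c2, Atp6v0d2, Atp6v0a4 and Atp6v1g3) and 3 are ubiquitous (Atp6v1a, Atp6v1b2 and Atp6v0d1). They were chosen by gene symbol, with results for Atp6v1b1 and Kit in these samples already known, so the differences below are descriptions and not tests. The samples were mammary glands of outbred mice, freed of lymph nodes and taken on the day of delivery, within 12 hours of it. Of 5 poly(A) RNA libraries, 2 came from wild-type mice and 3 from mice described as Nfib-null. Nfib is the gene of the transcription factor nuclear factor I/B. The labels do not give the animals' age, nor in which cells the gene was deleted. The table held a value per gene for each group, so that a difference had no replicate check and its error is unknown.

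Values are RPKM (read counts corrected for gene length and library size) as deposited, with the Nfib-null column before the wild-type column. The wild-type column carries the name in the titles of those libraries, and the other, headed NfibFF-WC, was taken as Nfib-null by elimination. The targeted gene did not check that assignment, since Nfib was at 55.3 RPKM there against 33.7 RPKM in the wild type. Log2 differences are Nfib-null minus wild type, of RPKM scaled by the median ratio between the columns with 1 added. A gene was called higher or lower from 2-fold, among the 12511 genes whose mean reached 1 RPKM. From the value of a single read in low genes, the wild-type libraries were estimated at about 15000000 and 18000000 reads and the others at about 27000000, 33000000 and, less clearly, 23000000. The search range was preset and the number of depths was set to the number of libraries, so neither was found from the data. Read numbers given below rest on these estimates and are rough.

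The V-ATPase moves protons across membranes at the cost of ATP. Its V1 sector in the cytoplasm splits ATP at paired A and B subunits, and its V0 sector in the membrane carries the protons. Every cell needs the pump to acidify lysosomes and other compartments, and ubiquitous forms of each subunit serve there. Intercalated cells of the kidney, ionocytes of the airway and inner ear and narrow and clear cells of the epididymis also place it at the cell surface, with tissue-restricted forms of several subunits, under the transcription factor FOXI1. Kit is the receptor for stem cell factor and is known in the mammary gland as a marker of luminal progenitor cells, and elsewhere as a gene of mast cells and melanocytes.

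Foxi1, Kit and the B subunit gene Atp6v1b1 stood several-fold higher in the Nfib-null column, and Atp6v0d2 was higher from a very low level. Of the 10 genes, 8 passed the minimum of 1 RPKM. Of these 8, 4 were at least 2-fold higher and 0 lower, where 6.95% of the 12511 genes were higher and 5.97% lower. Of the 4, Atp6v0d2 was below 1 RPKM in the wild type and passed the minimum only through its Nfib-null value. For Foxi1, Kit and Atp6v1b1 the difference was at least 4-fold, which held for 0.727% of all genes in that direction. Because members were picked with results of this contrast in view, nothing is read from these shares. The glands were analysed whole, so more cells of a type and more RNA per cell cannot be told apart.

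Foxi1, which switches on proton pump genes in acid-secreting cells, was at 38.4 RPKM in Nfib-null glands and 6.14 RPKM in wild-type glands (log2 2.09). The wild-type value rests on about 471 reads, so the gene was measured in both groups and its lower level is not one of a few reads. Its relatives Foxi2 and Foxi3 were listed at 0 RPKM in both columns and at 0.00779 against 0 RPKM. Kit stood at 63.9 RPKM against 5.72 RPKM (log2 2.89), ranking 10 from the top of the 12511 genes. Foxi1 and Kit were thus at like levels in the wild type, and Kit was the higher of the pair in the Nfib-null column, with a Kit to Foxi1 ratio of 1.66 against 0.931.

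Atp6v1b1 encodes the B subunit form of intercalated cells, where its loss in humans causes renal tubular acidosis with deafness. It was at 166 RPKM in Nfib-null glands and 13.5 RPKM in wild-type glands (log2 3.13), ranking 7 among all genes. It was the highest of the 10 genes in the Nfib-null column, and in the wild type it lay below Atp6v0d1, Atp6v1a, Atp6v1b2 and Atp6v1c2. The ratio of Atp6v1b1 to Foxi1 was 4.32 against 2.19. Between the columns the pump subunit therefore differed more than the transcription factor did.

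**Figure D1:**
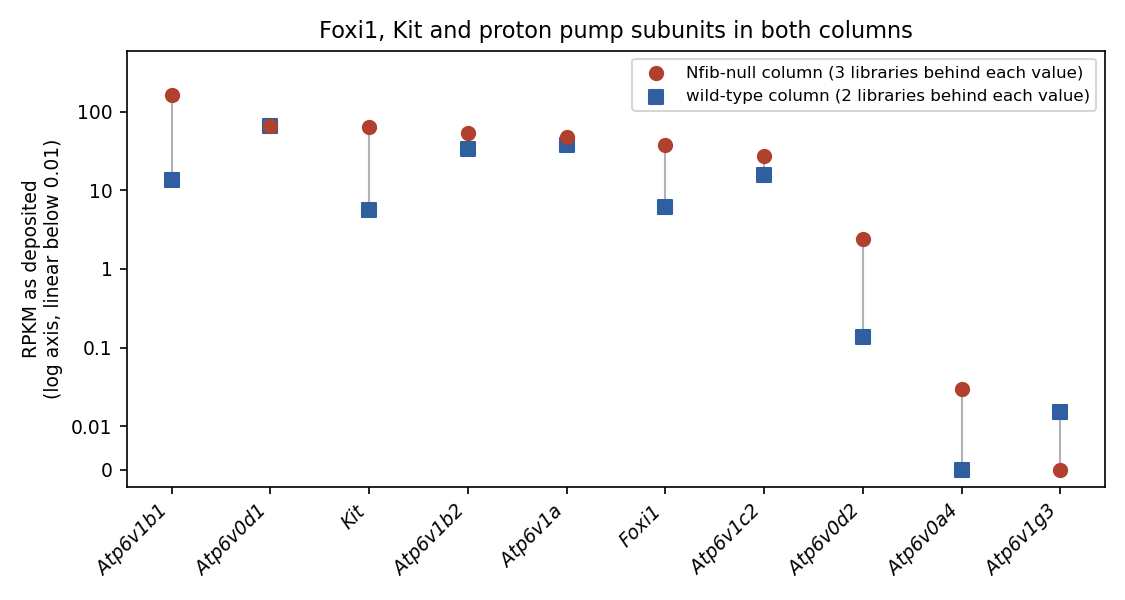
RPKM of the 10 genes in the Nfib-null column (circles) and the wild-type column (squares), on a log axis that is linear below 0.01, ordered by the Nfib-null value; each point is a group value without an error. Atp6v1b1 (166 against 13.5), Kit (63.9 against 5.72), Foxi1 (38.4 against 6.14) and Atp6v0d2 (2.43 against 0.136) are the widely separated pairs, while the ubiquitous Atp6v0d1 lies at 66.0 against 66.9.

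The promoters of the 3 genes with differences of at least 4-fold are printed because these genes stood higher together and FOXI1 is itself a DNA-binding protein. Each is the 250 bases before the start site in RefSeq, build GRCm38.p6, and capitals mark matches on either strand to the forkhead words TGTTTAC and TGTTTAT, the short nuclear factor I word TTGGC and the STAT word TTCNNNGAA. The first is chr6:83742767-83743016 on the plus strand, the second chr11:34208090-34208339 on the minus strand and the third chr5:75574737-75574986 on the plus strand.
Atp6v1b1: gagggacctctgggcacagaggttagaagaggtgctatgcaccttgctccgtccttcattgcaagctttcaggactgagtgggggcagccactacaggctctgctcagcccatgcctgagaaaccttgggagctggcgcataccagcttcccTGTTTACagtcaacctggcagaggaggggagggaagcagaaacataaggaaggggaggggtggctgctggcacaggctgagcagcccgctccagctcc
Foxi1: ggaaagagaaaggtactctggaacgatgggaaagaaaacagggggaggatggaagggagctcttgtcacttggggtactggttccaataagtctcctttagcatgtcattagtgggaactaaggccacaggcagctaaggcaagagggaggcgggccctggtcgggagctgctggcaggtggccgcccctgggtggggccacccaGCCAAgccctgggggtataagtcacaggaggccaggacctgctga
Kit: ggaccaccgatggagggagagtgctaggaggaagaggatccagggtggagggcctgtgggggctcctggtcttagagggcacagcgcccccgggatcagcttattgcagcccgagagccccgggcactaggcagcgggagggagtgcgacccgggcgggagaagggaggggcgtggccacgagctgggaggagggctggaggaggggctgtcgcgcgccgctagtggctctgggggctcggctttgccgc
In the Atp6v1b1 window the forkhead word TGTTTAC begins 98 bases before the start site. The Foxi1 window held GCCAA, the short nuclear factor I word TTGGC read on the other strand, 45 bases before the start. The Kit window held none of the words. Of the 10 genes 8 had a window, Atp6v0d2 and Atp6v1b2 being without one. A forkhead word was in 1 of the 8, against 7.10% of all 32851 windows, and the short nuclear factor I word was in 5 of the 8, against 41.5%. The full site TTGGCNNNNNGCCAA, which contains the short word, and the STAT word were in 0 of the 8, against 0.0365% and 7.02% of all windows. These matches describe letters and do not show binding.

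The B subunit genes are a pair in which the restricted form, Atp6v1b1, can take the place of the ubiquitous Atp6v1b2. Atp6v1b2 stood at 53.3 RPKM against 33.7 RPKM (log2 0.24), within 2-fold. Atp6v1b1 made up 75.7% of the summed RPKM of both genes in the Nfib-null column and 28.6% in the wild type. The form that was in the minority in wild-type glands was thus the main B subunit mRNA in the Nfib-null column. The ratio of Atp6v1b1 to Atp6v1b2 was 3.11 against 0.400, a 7.78-fold difference that no scaling factor between the columns can alter.

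The A subunit, Atp6v1a, which binds the ATP that is split and has a single form, stood at 47.5 RPKM against 38.0 RPKM. Its log2 difference was -0.09, and 0.32 with values as deposited. B subunit mRNA of both genes together was 4.61 times that of Atp6v1a in the Nfib-null column and 1.24 times in the wild type. With Atp6v1b2 alone the ratio was 1.12 against 0.887. The partner subunit did not differ in step with Atp6v1b1.

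The C subunit regulates the joining of V1 to V0. Its restricted form Atp6v1c2, known from kidney and lung, stood at 27.2 RPKM against 15.6 RPKM (log2 0.38), within 2-fold. The ubiquitous Atp6v1c1 stood at 24.1 RPKM against 28.9 RPKM (log2 -0.65). Atp6v1c2 thus made up 53.1% of C subunit mRNA in the Nfib-null column and 35.0% in the wild type, a 2.10-fold difference in the ratio of the forms. Exons of Atp6v1c2 overlap exons of Pdia6, a protein disulfide isomerase gene on the opposite strand at 111 RPKM against 166 RPKM. No source used here says that strand was used in counting, so the level of Atp6v1c2 is uncertain.

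The d subunit couples the rotor of V1 to V0. Its restricted form Atp6v0d2, known from osteoclasts, kidney and epididymis, stood at 2.43 RPKM against 0.136 RPKM (log2 1.43). The wild-type value corresponds to about 11 reads and the Nfib-null value to about 513. The plain ratio of the deposited values was 17.8, the widest among the members measured in both columns, and the added 1 RPKM reduces it on the log2 scale. The ubiquitous Atp6v0d1 stood at 66.0 RPKM against 66.9 RPKM (log2 -0.42). Atp6v0d2 therefore remained a minor form, with 3.56% of d subunit mRNA against 0.204%.

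Atp6v0a4 and Atp6v1g3, the a and G subunit forms that accompany Atp6v1b1 in intercalated cells, were barely detected. Atp6v0a4 was at 0.0295 RPKM in Nfib-null glands, about 8 reads over 3 libraries, and was listed at 0 in the wild type. Its exons overlap those of D630045J12Rik and Tmem213, so even these few reads are uncertain. Atp6v1g3 was listed at 0 in the Nfib-null column and stood at 0.0149 RPKM in the wild type, about 1 read. No fold is given for either. The a subunit mRNA came from Atp6v0a1 (30.6 against 30.9 RPKM), Atp6v0a2 (27.2 against 39.6 RPKM) and Tcirg1 (31.1 against 29.2 RPKM), and the G subunit mRNA mainly from Atp6v1g1 (135 against 136 RPKM). With so few reads, these forms cannot be compared between the columns.

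**Figure D2:**
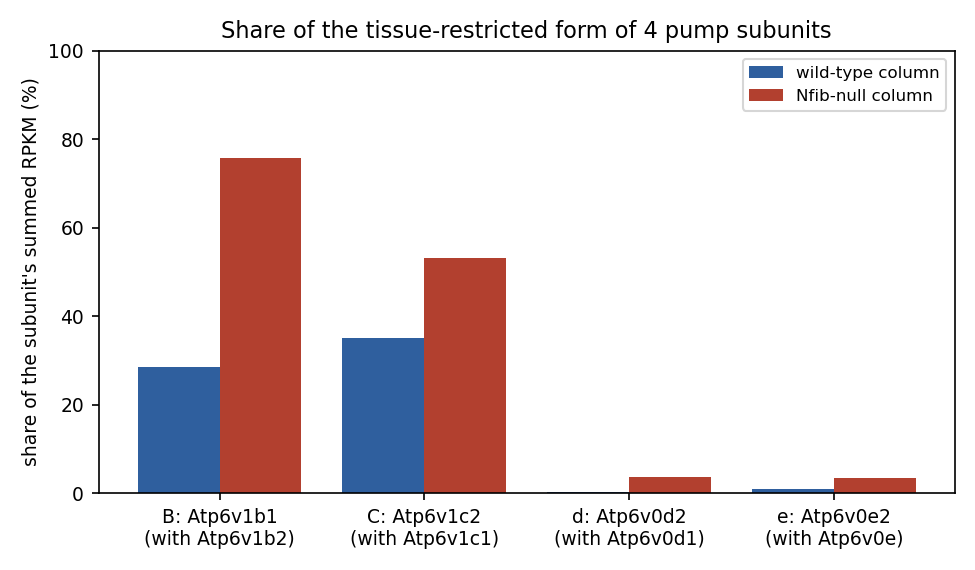
Share of the summed RPKM of a subunit's forms that came from the restricted form, in percent, for the B, C, d and e subunits; bars are group values without an error. Atp6v1b1 goes from 28.6% in the wild type to 75.7% in the Nfib-null column, while Atp6v0d2 (0.204% and 3.56%) and Atp6v0e2 (0.885% and 3.43%) stay minor forms in both.

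The whole complex was examined in 23 V1 and V0 subunit genes, of which 19 passed the minimum. Of these, 3 were at least 2-fold higher, 0 lower and 16 within 2-fold. The 19 genes had a median log2 difference of -0.24, beside 0.00 for all 12511 genes. For this and each later list, the share of all genes to set beside the counts is 6.95% higher and 5.97% lower. The third higher gene, besides Atp6v1b1 and Atp6v0d2, was Atp6v0e2, a form of the small e subunit of V0 that is known from brain, at 3.59 RPKM against 0.631 RPKM (log2 1.25). Its ubiquitous counterpart Atp6v0e stood at 101 RPKM against 70.7 RPKM (log2 0.10). Atp6v0d2 and Atp6v0e2 were below 1 RPKM in the wild type and passed the minimum only through their Nfib-null values. The mean counts the Nfib-null column as 3 of 5 libraries, so a low gene passed more easily when higher there than when lower. With a minimum mean of 5 RPKM, 1 subunit was higher. Atp6v1g2, the G form known from neurons, stood at 3.53 RPKM against 1.56 RPKM (log2 0.54), and Atp6v1e2, the testis form of E, was listed at 0 in both columns. The forms that were higher were therefore minor forms in the wild type.

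Among the ubiquitous subunits most values lay slightly below the median of all genes. Atp6v1d, a part of the central stalk, and Atp6v1h, a regulatory subunit, had log2 differences of -0.68 and -0.67, and Atp6v0a2, a Golgi and endosome form of a, the lowest at -0.93. As deposited the values of Atp6v1d were 55.7 against 67.6 RPKM and those of Atp6v1h 34.7 against 41.9 RPKM. The stalk gene Atp6v1e1 stood at 136 against 110 RPKM (log2 -0.10) and Atp6v0b, one of the ring subunits, at 90.6 against 85.4 RPKM (-0.32). Atp6v0c, the main ring subunit, was listed at only 0.0641 RPKM against 0.0535 RPKM. Processed pseudogene copies of Atp6v0c exist in the mouse annotation, and how reads shared between such copies were counted is not given in the sources used here, so its level is uncertain.

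**Figure D3:**
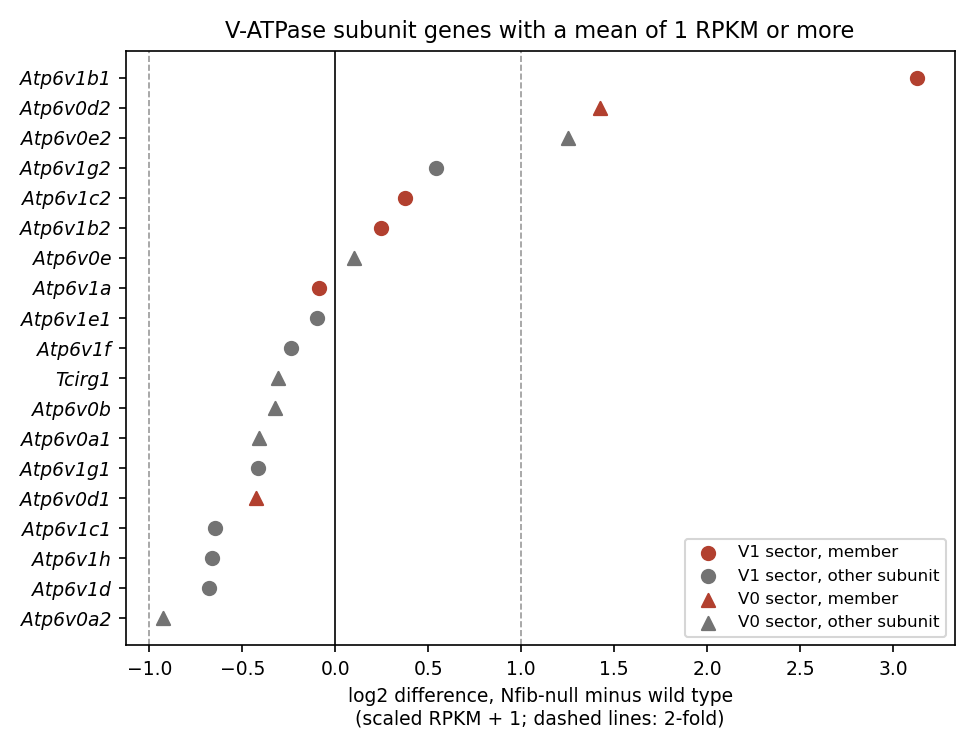
Log2 difference (Nfib-null minus wild type, scaled RPKM with 1 added) of the 19 V-ATPase subunit genes whose mean reached 1 RPKM; circles are V1, triangles V0, red marks members, dashed lines 2-fold. Atp6v1b1 (3.13), Atp6v0d2 (1.43) and Atp6v0e2 (1.25) lie beyond 2-fold, and the other 16 lie between -0.93 and 0.54.

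Accessory and assembly genes of the pump gave 11 of 12 above the minimum, with 1 higher, 0 lower and a median of -0.47. The higher gene was Ncoa7, which encodes a protein that binds the pump, at 12.0 RPKM against 3.47 RPKM (log2 1.18). Its relative Oxr1 stood at 18.4 RPKM against 9.87 RPKM (log2 0.46). Atp6ap1 and Atp6ap2, which stay with the assembled V0, stood at 87.0 against 103 RPKM and 44.8 against 47.1 RPKM. Rogdi and Dmxl1, of the complex that rejoins V1 to V0, had differences of -0.96 and -0.92.

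Genes of the lysosome, the usual setting of the ubiquitous pump, lay mostly within 2-fold. Where 6.95% of all genes were higher and 5.97% lower, 2 of 19 lysosomal genes were higher, 1 lower and 16 within 2-fold (median 0.21). Among them Hexa, a hexosaminidase gene, was higher (42.6 against 12.6 RPKM, log2 1.29), and the glucuronidase gene Gusb (24.7 against 39.3 RPKM, -1.05) was lower. Tfeb, the regulator of lysosomal and pump genes listed as Tcfeb, stood at 8.26 RPKM against 5.24 RPKM.

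Genes that mark ionocytes and intercalated cells beside the pump were mostly not detected. Of 26 such genes 8 passed the minimum, 0 of them 2-fold higher or lower, with a median of 0.15. The anion exchanger genes Slc26a4 and Slc4a9 were listed at 0 against 0 and at 0 against 0.00902 RPKM, the ammonia transporter gene Rhcg at 0 in both columns, and Cftr, the chloride channel of airway ionocytes, at 0.0176 against 0.0152 RPKM. The ionocyte factor gene Ascl3 stood at 0.188 against 0.135 RPKM. These defining transport genes were thus at or near 0 in both columns, while Foxi1 and Atp6v1b1 were not.

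A few others of that list had larger values in the Nfib-null column without passing 2-fold after scaling and with 1 RPKM added. Dmrt2, a transcription factor gene of intercalated cells, stood at 6.52 RPKM against 2.49 RPKM (log2 0.78), Rhbg, an ammonia transporter, at 2.03 against 0.589 RPKM (0.71), and Hepacam2, an adhesion gene, at 3.54 against 1.32 RPKM (0.69). With values as deposited 1 of the 8 genes above the minimum was at least 2-fold higher, Dmrt2 (log2 1.11), and 0 lower. With 0.1 RPKM added 1 was higher, Rhbg (1.25), and 0 lower. These genes were named after their values were seen. Car2, the cytosolic carbonic anhydrase that supplies protons to the pump, stood at 59.4 RPKM against 48.8 RPKM (log2 -0.12).

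Kit was set beside its ligand and the proteins it signals through. With the columns scaled by their median ratio, 0 of 14 genes of Kit signalling lay beyond 2-fold (median 0.09). With values as deposited Kitl and Sh2b2 were at least 2-fold higher, and with quantile normalization, epithelial scaling or 0.1 RPKM added Cbl, a ubiquitin ligase gene, was at least 2-fold lower. Kitl, the gene of stem cell factor, stood at 31.1 RPKM against 15.0 RPKM (log2 0.61) and Sh2b2, an adaptor, at 5.94 against 2.19 RPKM (0.80), both named after their values were seen. The adaptor genes Grb2 and Gab2 had differences of -0.19 and 0.28. The difference of Kit was larger than that of each of these 14 genes.

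Luminal progenitor genes other than Kit did not go one way. Of 9 genes 4 were higher, 1 lower and 4 within 2-fold, with a median of 0.63. Aldh1a3, a retinaldehyde dehydrogenase, stood at 39.8 RPKM against 3.63 RPKM (log2 2.78), Cd14, a lipopolysaccharide receptor, at 639 against 74.2 RPKM (2.68), Lurap1l, listed as D4Bwg0951e, at 48.9 against 6.98 RPKM (2.26) and Cyp24a1, a vitamin D hydroxylase, at 2.16 against 0.322 RPKM (1.07). Cyp24a1 passed the minimum only through its Nfib-null value. Elf5, the alveolar ETS factor, was lower at 321 RPKM against 711 RPKM (-1.56). Of 16 general epithelial genes 2 were higher, Cldn3 (1.74) and Krt7 (1.63), 0 lower and 14 within 2-fold, with a median of 0.14.

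The members were also set against Epcam, an epithelial adhesion gene at 266 RPKM against 137 RPKM. The ratio to Epcam was 3.22 times as high in the Nfib-null column for Foxi1, 5.75 times for Kit and 6.33 times for Atp6v1b1. All 3 genes were thus higher in the Nfib-null column per unit of this epithelial mRNA as well. Epcam is only 1 of the 16 epithelial genes. Cldn3 (1.74) and Krt7 (1.63) differed more than Epcam (0.54), so ratios to them would be smaller, while others of the list differed less. With scaling to the median ratio of all 16 the log2 differences were 1.94 for Foxi1, 2.74 for Kit and 2.98 for Atp6v1b1.

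Kit and Atp6v0d2 are also genes of other cells in a whole gland. All 9 mast cell genes had larger deposited values in the Nfib-null column, summing to 68.3 RPKM against 24.3 RPKM, and of the 6 above the minimum 2 were higher, the proteases Tpsb2 (17.4 against 5.45 RPKM, log2 1.14) and Cma1 (13.3 against 4.37 RPKM, 1.05). With values as deposited 4 were higher, and with scaling to the epithelial genes 0. Their median was 0.91, a smaller difference than that of Kit (2.89). The mast cell receptor genes Ms4a2 (0.0905 against 0.0661 RPKM) and Fcer1a (0.601 against 0.420 RPKM) were near 0 in both columns. The part of mast cells in the Kit value was not tested.

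Macrophage and osteoclast genes were the list with the most genes called higher. Of 16 genes 13 passed the minimum, 10 were higher and 0 lower, with a median of 1.27 and sums of 876 RPKM against 267 RPKM. Cd68 stood at 49.1 RPKM against 11.2 RPKM (log2 1.65), C1qc at 95.3 against 26.1 RPKM (1.43), and Ctsk and Acp5, a protease and a phosphatase that osteoclasts share with macrophages, differed by 1.33 and 1.07. The osteoclast fusion genes Dcstamp (listed as Tm7sf4, 0.216 against 0.262 RPKM) and Ocstamp (listed as 4833422F24Rik, 0.737 against 0.670 RPKM) and Calcr (0.00265 against 0 RPKM) were low in both columns. The part of macrophages in the Atp6v0d2 value was not tested.

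Melanocyte and salivary gland genes were examined because the former express Kit and the latter hold Foxi1-expressing ducts. None of 5 melanocyte genes passed the minimum, and they summed to 2.72 RPKM against 1.08 RPKM, with Tyrp1 at 0.0197 against 0 RPKM and Mlana at 1.28 against 0.141 RPKM, about 4 reads in the wild type. The part of melanocytes in the Kit value was not tested. Of 11 salivary gland genes 3 passed the minimum. The amylase gene Amy1 (50.8 against 11.9 RPKM, log2 1.61) and the carbonic anhydrase gene Car6 (83.0 against 7.28 RPKM, 2.96) were higher and Egf (1.77 against 29.2 RPKM, -3.78) was lower. The defining secretory genes Dcpp1, Dcpp2 and Bpifa2 were listed at 0 in both columns, and Muc19 stood at 0.00211 against 0.00180 RPKM.

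**Figure D4:**
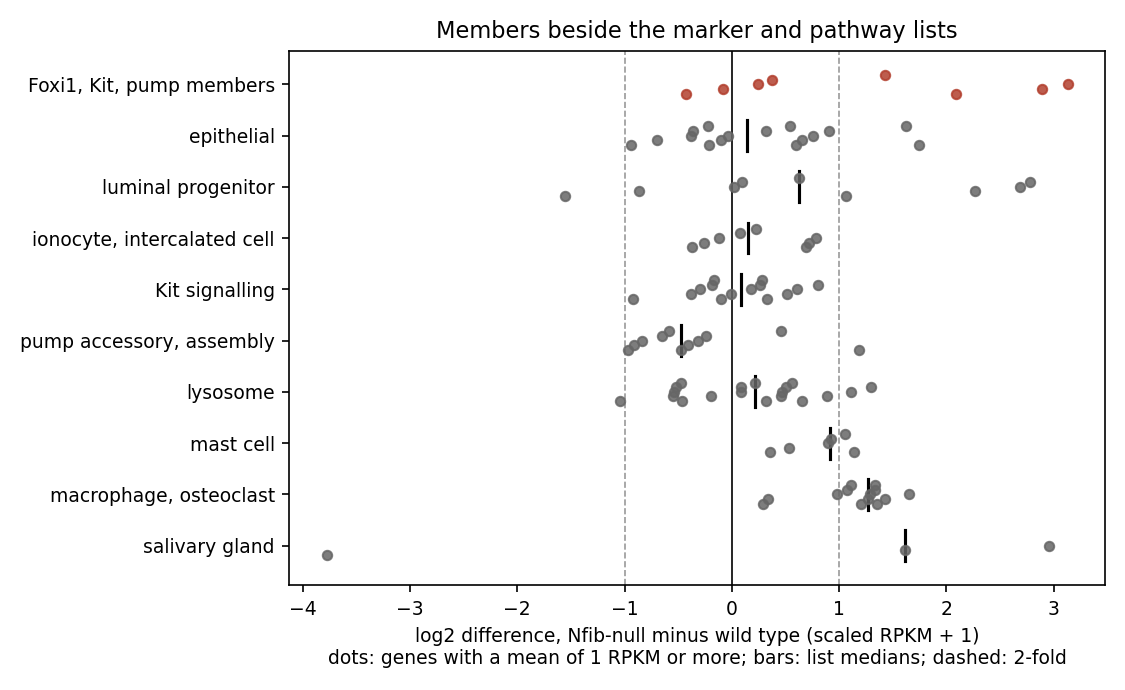
Log2 differences of the 8 members above the minimum (red) beside genes of 9 marker and pathway lists (grey dots are genes whose mean reached 1 RPKM, black bars list medians, dashed lines 2-fold). Kit (2.89) and Atp6v1b1 (3.13) lie beyond every gene of the Kit signalling, pump accessory, lysosome, mast cell and macrophage lists.

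With only 2 columns, likeness between genes can be given only as the order of the log2 difference. Next to Atp6v1b1 in that order were Mt2 (3.28), a metallothionein, and Cyp2e1 (3.26), a cytochrome P450, above it, and Car6 (2.96) and Pck1 (2.90), the enzyme of glyceroneogenesis, below it. Car6 and Pck1 also stood just above Kit, and Slc5a7 (2.89), the choline transporter, and Inhbb (2.89), an activin subunit, just below it. They share no more than a like difference between 2 group values.

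Foxi1, Kit and Atp6v1b1 kept their order under every alternative scaling, added constant and minimum. The log2 difference of Foxi1 ranged from 1.66 to 2.46 over 8 alternatives, that of Kit from 2.38 to 3.27 and that of Atp6v1b1 from 2.86 to 3.53. Atp6v0d2 depended on the added constant, from 0.46 with 5 RPKM added to 3.10 with 0.1 RPKM. Among the members within 2-fold, Atp6v1a ranged from -0.24 to 0.32 and so has no stable direction, while Atp6v1b2 (0.09 to 0.65) and Atp6v1c2 (0.22 to 0.77) stayed above 0 and Atp6v0d1 (-0.58 to -0.02) below it.

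**Figure D5:**
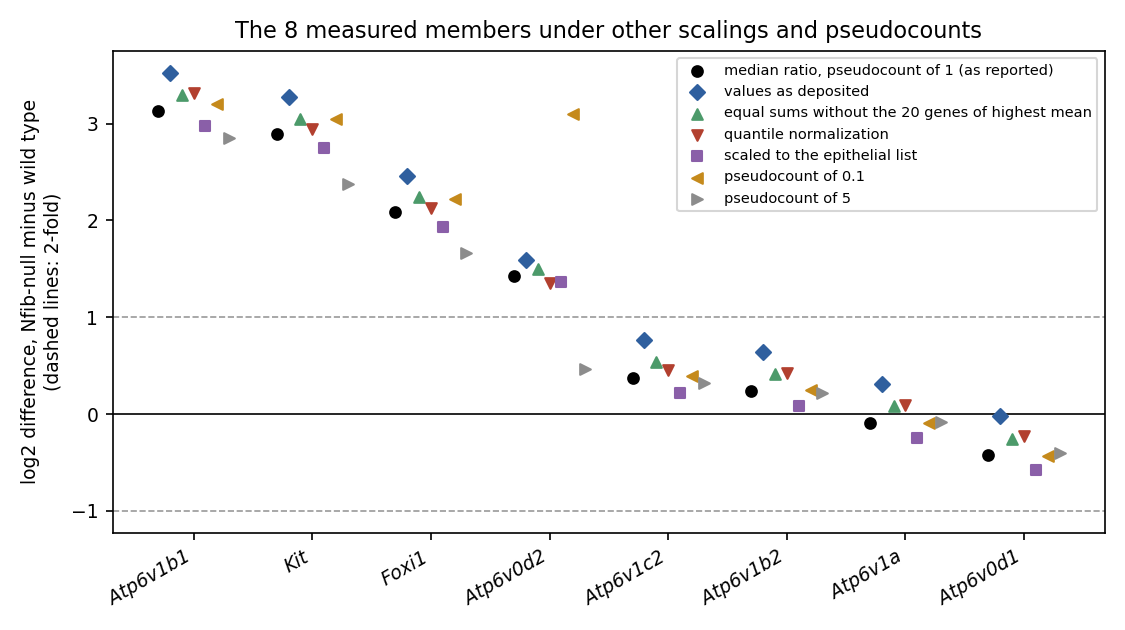
Log2 difference of the 8 members above the minimum under median-ratio scaling (black) and under 6 other scalings or added constants; dashed lines mark 2-fold. Atp6v1b1, Kit and Foxi1 stay above 2-fold in all of them, Atp6v0d2 spreads from 0.46 to 3.10 with the added constant, and Atp6v1a lies on both sides of 0.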

How the data were processed

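The deposited values were RPKM, per the file headers, made by the authors for 22609 genes in 2 group columns, with 2 libraries behind the wild-type and 3 behind the Nfib-null column. The submitters' processing notes name CASAVA, TopHat and the mouse build mm9. How reads were counted, on which annotation and whether by strand is not given in the sources used here. With no value per library, no test, SD or SE could be computed. The mean weighted by library number had to reach 1 RPKM, which kept 12511 genes. Columns were divided by factors of 1.15 (Nfib-null) and 0.867 (wild type), which set the median log2 ratio of 0.41 to 0, and differences are of log2(scaled RPKM + 1), which understates low genes. The factor and fold calls were also run on simulated columns made from the wild-type values, with low genes left out. That run checks the code only, and not low genes or the spread between animals. Depths came from the value of 1 read in genes with a single GENCODE M21 transcript, within a preset range for each column. Approximate reads use these depths and the longest coding transcript. The GENCODE M21 transcripts are of another build than mm9, so no coordinates of expression values are given. The 8 members above the minimum share their value with no other gene. Members and all 12 gene lists (160 entries, 6 matched by an older symbol) were chosen with earlier results of these data known. Named genes are the members and their paralogs, up to 8 genes a list at least 2-fold apart, the order neighbours of the largest 2 members, and others, within 2-fold or near 0, chosen after their values were seen. Python 3.11.15, numpy 2.4.6, pandas 2.3.3 and matplotlib 3.10.9 were used. Scaling, added constant, minimum and fold limit were varied. Some list genes are not reported here.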

Additional observations from a re-analysis of the deposited data

How the results depend on the processing

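The counts of 4 higher and 0 lower members stayed within 1.5 times under all 10 alternatives, with 3 higher when 5 RPKM was added, when the minimum mean was 5 RPKM, or at a 4-fold limit. Of the 23 subunits 3 were higher; with 5 RPKM added, with a minimum mean of 5 RPKM or at a 4-fold limit 1 was. The 0 lower became 1 (Atp6v0a2) with scaling to the epithelial genes and 4 at a 1.5-fold limit. Under quantile normalization the ratios of restricted to ubiquitous form, Nfib-null over wild type, were 7.80 for Atp6v1b1, 2.02 for Atp6v1c2 and 13.5 for Atp6v0d2. Over all genes, 869 higher and 747 lower became 1800 and 369 with values as deposited, 1173 and 548 with equal sums without the 20 most abundant genes, and 658 and 990 with epithelial scaling; the median of all genes shifted by 0.35, 0.15 and -0.14. No paired analysis was possible because the columns hold group values, and for the same reason no library could be left out in turn. Low read numbers limit Atp6v0d2 in the wild type and Atp6v0a4 and Atp6v1g3 in both columns.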
